A study of Mus musculus with 3 samples.

Results

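The mouse Dlx genes encode 6 homeodomain transcription factors, and they lie in 3 pairs of neighbours: Dlx1 and Dlx2 on chromosome 2, Dlx5 and Dlx6 on chromosome 6, and Dlx3 and Dlx4 on chromosome 11. All 6 were found among the 21887 protein-coding genes that RefSeq lists for GRCm38.p6, which is mm10. The region studied at each pair was both genes, the gap between them and 100 kb on each side, and a peak was taken when its summit lay there. The peaks come from CUT&Tag, which uses an antibody to bring the Tn5 transposase to a bound protein, so that DNA close by is cut and tagged for sequencing. The antibody was a mouse polyclonal against MEIS2, a homeodomain factor of the TALE class, and the tissue, taken at E14.5 from CD1 mice labelled wild type, was the lateral ganglionic eminence, where striatal neurons arise. The antibody was used in 2 libraries, taken as replicates, and left out of 1 further library, with 100000 cells in each. The labels do not say whether the libraries came from separate embryos, so the spread between the replicates may be technical. Peak lists hold no expression, so the labelled tissue was not checked against marker genes. The 3 windows together held 43 of 78060 peaks of MEIS2 replicate 1, 39 of 82093 of replicate 2 and 0 of 9869 of the no-antibody library.

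Dlx proteins bind homeodomain sites and drive the differentiation and migration of GABAergic neurons that arise in the ganglionic eminences. Dlx1, Dlx2, Dlx5 and Dlx6 are the members used in the developing forebrain, where Dlx1 and Dlx2 come on in progenitors and help to switch on Dlx5 and Dlx6. Dlx3 is known for its roles in skin, hair, teeth, bone and placenta, and Dlx4 is its partner outside the brain. The genes of each pair face each other, so their 3′ ends lie towards the gap and their 5′ ends point outwards. In the forebrain pairs the gap holds conserved enhancers that are active in the ganglionic eminences. The study's title places Meis2 under the control of Dlx1 and Dlx2, and the peak lists bear on the other direction, namely whether MEIS2 itself sits at Dlx genes.

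A peak is called reproducible where replicate 1 and replicate 2 peaks share 1 bp or more and the no-antibody library has none at the replicate 1 peak. Fold enrichment is the authors' value from the MACS peak caller, that is, (pileup + 1) divided by (local expectation + 1). Pileup counts the extended tags over the summit, without scaling for depth. The caller used 7618406 tags in MEIS2 replicate 1, 6559629 in MEIS2 replicate 2 and 6337375 in the no-antibody library. No p-value is given, because 3 loci in libraries of 1 tissue leave no replicated contrast to test.

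The forebrain pairs were not richer in MEIS2 peaks than Dlx3/Dlx4 over these windows. The Dlx1/Dlx2 window held 10 peaks in replicate 1 and 13 in replicate 2, of which 8 were reproducible. The Dlx5/Dlx6 window held 7 peaks in each replicate, of which 4 were reproducible. The Dlx3/Dlx4 window held 26 peaks in replicate 1 and 19 in replicate 2, of which 13 were reproducible. Per 100 kb that made 3.66 reproducible peaks at Dlx1/Dlx2, 1.83 at Dlx5/Dlx6 and 5.75 at Dlx3/Dlx4. The forebrain windows together had 0.477 times the density of the Dlx3/Dlx4 window, and the ratio was 0.338 in replicate 1 alone and 0.544 in replicate 2 alone. The direction was thus the same in both replicates, and with flanks of 50 kb the ratio was 0.759. With those flanks the count was 7 at Dlx1/Dlx2, 3 at Dlx5/Dlx6 and 7 at Dlx3/Dlx4. Dlx1/Dlx2 has the shorter window, so at 50 kb it was not less dense than Dlx3/Dlx4. The lower ratio there came from Dlx5/Dlx6.

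**Figure D1:**
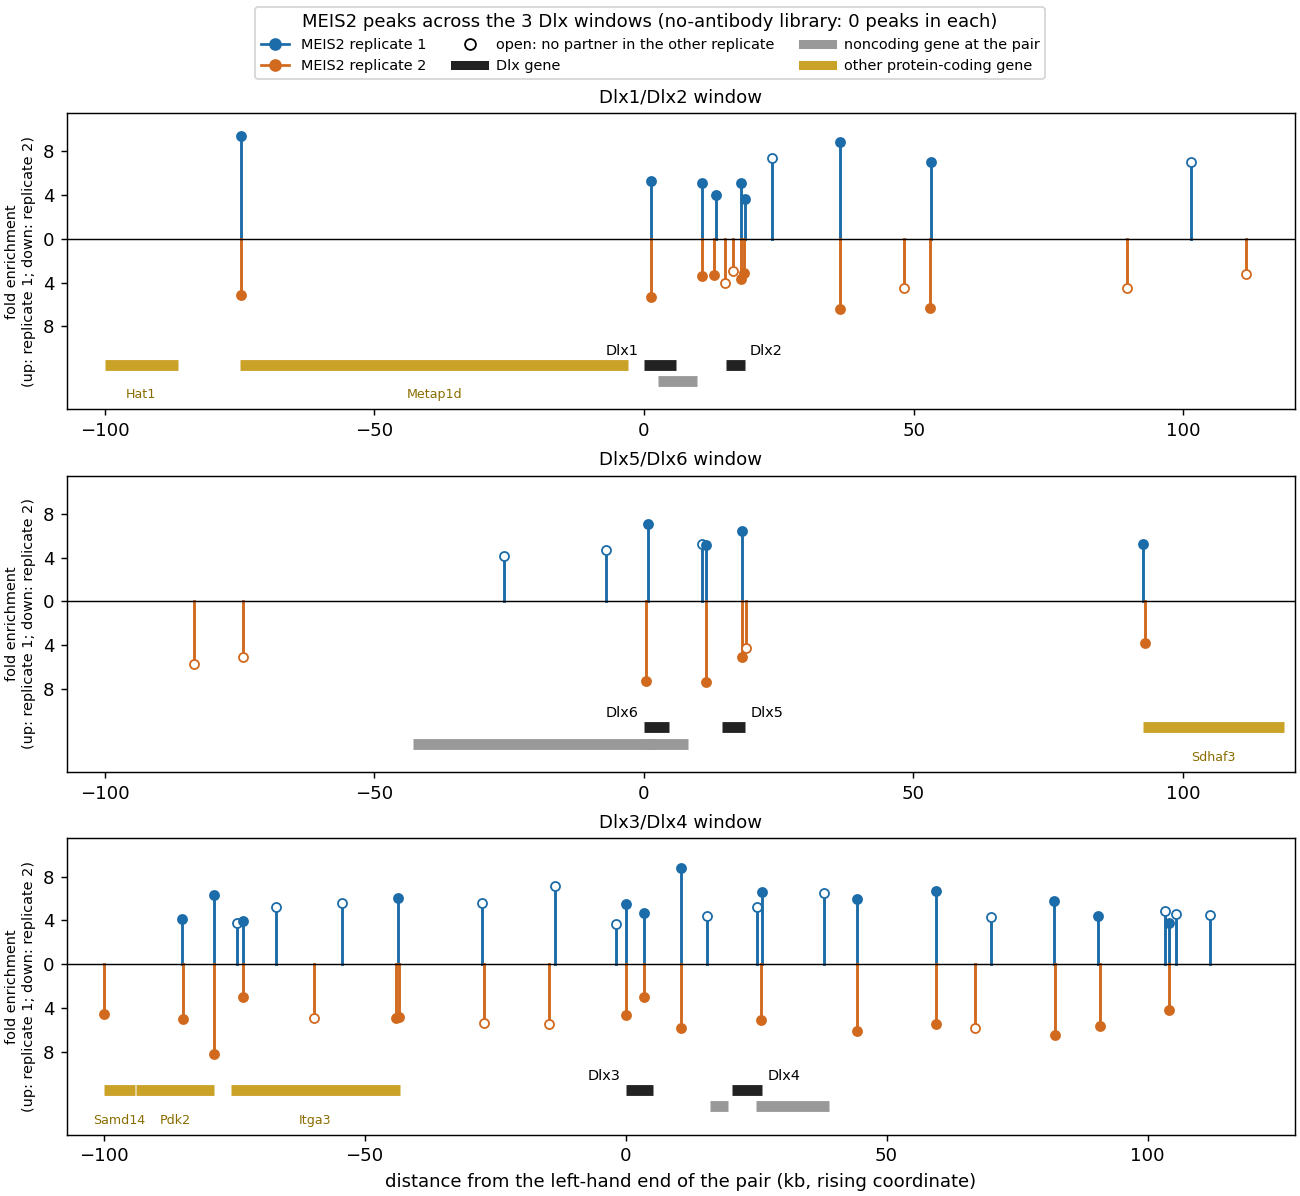
Positions of all MEIS2 peaks in the 3 Dlx windows. The x axis is the distance in kb from the left-hand end of each pair, and the y axis is fold enrichment, with replicate 1 drawn upwards and replicate 2 downwards. Filled circles have a partner in the other replicate and open circles have none. In all 3 windows peaks lie closer together on the pair itself than around it. The forebrain flanks hold few peaks, while the 26 replicate 1 peaks and 19 replicate 2 peaks of the Dlx3/Dlx4 window run along its whole length. Black bars are Dlx genes, grey bars are noncoding genes at the pair and gold bars are other protein-coding genes.

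Read against all protein-coding genes, the forebrain windows were unremarkable. Over the 21887 genes with 100 kb on each side, the median was 2.55 reproducible peaks per 100 kb, with quartiles of 1.48 and 4.16. A density as high as that of Dlx1/Dlx2 was reached by 31.8% of genes, as high as that of Dlx5/Dlx6 by 67.7%, and as high as that of Dlx3/Dlx4 by 11.6%. Neighbouring genes share windows, so these shares only describe the list. No no-antibody peak lay in any of the 3 windows, against 41.3% of protein-coding genes with such a peak in the gene or within 100 kb. The nearest no-antibody summit to a Dlx gene lay 101971 bp from Dlx5, just past the edge of that window, and the one nearest Dlx1 was 356200 bp away.

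The lower density of the forebrain windows lay in their flanks. On the pairs themselves the forebrain loci together were not the less dense, with all reproducible peaks counted. On the pair itself, taken as both genes, the gap and 1 kb on either side, Dlx1/Dlx2 had 5 reproducible peaks in 20.6 kb, Dlx5/Dlx6 had 3 in 20.7 kb and Dlx3/Dlx4 had 4 in 28.2 kb. These were densities of 2.42, 1.45 and 1.42 reproducible peaks per 10 kb. The forebrain pairs together had 1.36 times the density of Dlx3/Dlx4 there. The ratio was 1.02 in replicate 1 and 1.87 in replicate 2, so the size of this difference depended on the replicate. In replicate 1 alone, Dlx5/Dlx6 had 1.93 peaks per 10 kb on the pair and Dlx3/Dlx4 had 2.13. Pair densities were not recomputed under the other settings, and most of the Dlx1/Dlx2 pair peaks were weak in replicate 2. Apart from the peak at Dlx1 (6.48), its reproducible pair peaks had replicate 2 −log10 q values of 2.17 to 3.56. Those of Dlx5/Dlx6 ran from 5.42 to 10.6, and those of Dlx3/Dlx4 were 4.51, 1.5, 6.23 and 5.18. A floor of 5 would thus leave Dlx1/Dlx2 the fewest pair peaks. Where overlap had to reach 50% of both peaks, each forebrain pair lost a gap peak and the Dlx3/Dlx4 pair lost none. In the remaining 198 kb of each window, Dlx1/Dlx2 had 3 reproducible peaks, Dlx5/Dlx6 had 1 and Dlx3/Dlx4 had 9. The forebrain flanks had 0.222 times the density of the Dlx3/Dlx4 flanks, with 0.2 in replicate 1 and 0.3 in replicate 2. All 3 loci were therefore denser on the pair than around it. The margin was widest at the forebrain pairs, where the flanks held only 3 and 1 reproducible peaks. The pair part holds gene ends by definition, and 52.4% of all protein-coding genes had a reproducible summit within 1 kb of an end. No such contrast was computed over other gene pairs, so it is not shown to be particular to Dlx genes.

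**Figure D2:**
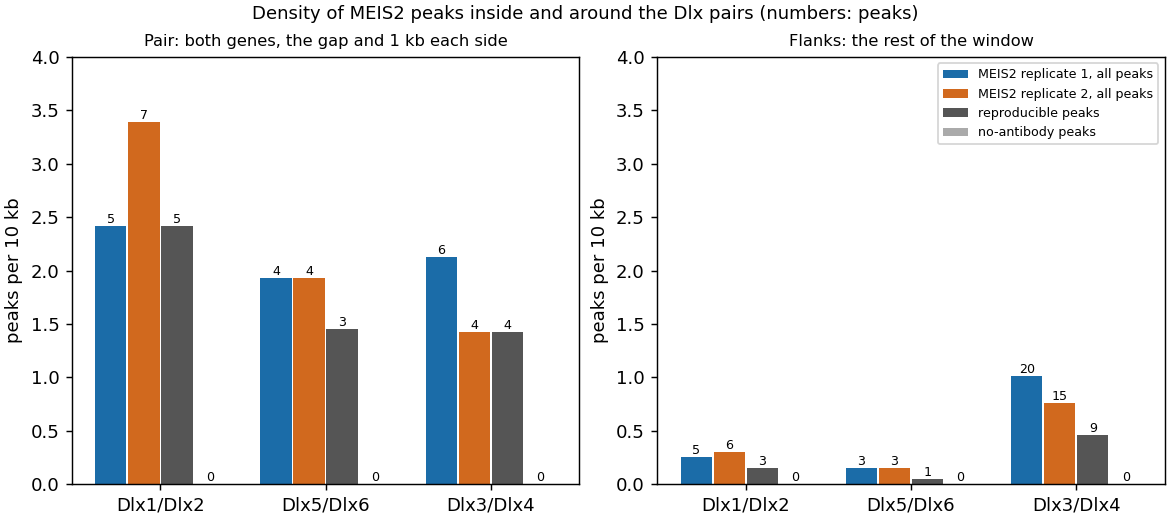
Peaks per 10 kb on each Dlx pair (left) and in the rest of its window (right), with the number of peaks printed over each bar. On the pair, reproducible peaks stand at 2.42 per 10 kb for Dlx1/Dlx2, 1.45 for Dlx5/Dlx6 and 1.42 for Dlx3/Dlx4, while in the flanks the Dlx3/Dlx4 bars are the tallest in both replicates. There is 1 value per library and locus, so no error bars are drawn, and the no-antibody library has 0 peaks in every panel.

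The largest distance from the outer end of a Dlx gene to its nearest reproducible MEIS2 summit was 1377 bp, at Dlx1. The reproducible summit closest to an inner end was 1601 bp away, inside Dlx3. These distances were read from the 6 genes themselves, and no share over all genes was computed for outer against inner ends. With the gene table's ends and a limit of 1 kb, 5 of 6 genes had a reproducible summit at an end, against 52.4% of all protein-coding genes, and every one was at the outer end. Each replicate on its own also gave 5 of 6, against 60.4% of protein-coding genes in replicate 1 and 55.3% in replicate 2, and the no-antibody library gave 0 of 6, against 0.27%. The exception was Dlx1, whose summit lay 1377 bp inside the outer end. The RefSeq promoter table gives Dlx1 a start 1332 bp inside that end, and the replicate 1 summit lay 45 bp from it. Replicate 2 had its summit 89 bp from the same start. The promoter table places Dlx1 on the plus strand and Dlx2 on the minus strand, which puts both starts at the outer ends. With 6 genes and a background above 50%, a count of 5 or 6 is not a result about Dlx genes as a group.

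Dlx1, the left-hand gene of its pair, had a peak at chr2:71528896-71529719, with fold enrichments of 5.33 in replicate 1 and 5.36 in replicate 2 and pileups of 21 and 14. At 824 and 809 bp in the replicates it was the widest peak of the 3 windows, and the replicates differed little in its edges or fold. Its summits lay 134 bp apart, against a median of 90 bp over the shared peaks of the 3 windows. Dlx2, which acts with Dlx1 in the same progenitors, had 2 adjoining peaks at its outer end. The first, chr2:71545873-71546459, had folds of 5.11 and 3.71, pileups of 28 and 13 and a replicate 1 summit 720 bp inside the gene. The second, chr2:71546687-71546901, had folds of 3.64 and 3.16, and its replicate 1 summit lay 45 bp outside the gene end. Both had a higher fold in replicate 1, and the fold of the second was higher than that of only 3.99% of replicate 1 peaks and 0.854% of replicate 2 peaks in the whole lists. By pileup the first of them stood above 85.8% of replicate 1 peaks and 65.4% of replicate 2 peaks.

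The promoter windows of Dlx1 and Dlx2, which run from 250 bases before the start to 50 after it, are shown because the peaks cover them. The Dlx1 window (RefSeq, GRCm38.p6, chr2:71529195-71529494, plus strand) lay wholly inside the MEIS2 peak in both replicates, and the Dlx2 window (chr2:71546705-71547004, minus strand) overlapped the second Dlx2 peak by 197 bases in replicate 1 and 139 in replicate 2. Of 17492 protein-coding genes with a promoter window in that table, 48.5% overlapped a reproducible peak and 0.0629% a no-antibody peak. The sequences are given 5′ to 3′, with any match to a searched word in capitals.
Dlx1: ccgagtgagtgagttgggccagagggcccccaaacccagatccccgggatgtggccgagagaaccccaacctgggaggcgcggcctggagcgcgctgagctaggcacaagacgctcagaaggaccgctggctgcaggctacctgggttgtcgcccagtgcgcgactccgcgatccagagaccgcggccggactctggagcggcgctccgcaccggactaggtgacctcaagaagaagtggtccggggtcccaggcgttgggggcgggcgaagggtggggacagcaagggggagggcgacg
Dlx2: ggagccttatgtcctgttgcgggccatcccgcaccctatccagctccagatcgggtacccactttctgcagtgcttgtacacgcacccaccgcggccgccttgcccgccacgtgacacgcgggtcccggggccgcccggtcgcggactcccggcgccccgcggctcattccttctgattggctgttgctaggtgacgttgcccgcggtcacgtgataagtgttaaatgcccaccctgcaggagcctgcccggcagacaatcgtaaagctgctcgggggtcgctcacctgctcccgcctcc

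Neither promoter held a match, so no capitals appear in them. The words searched on both strands were TGACAG, the core that MEIS proteins prefer, TGATTGACA, a longer PBX and MEIS word that shares letters with it, and TAATTA, a homeodomain word of the kind Dlx proteins bind. Of all 32851 promoter windows of that length, 19.2% held TGACAG, 0.432% held TGATTGACA and 5.29% held TAATTA. Both Dlx promoters were rich in G and C, with 69.3% in Dlx1 and 66.3% in Dlx2 against a median of 52.7%, and they held 27 and 29 CG dinucleotides against a median of 7. The absence of a word says only that these letters are not in this window, which is shorter than the peak at Dlx1.

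Dlx6 and Dlx5, which act downstream of Dlx1 and Dlx2 in the forebrain, had 1 reproducible peak each at their outer ends, and that of Dlx6 had the highest fold of any Dlx gene end in both replicates. It lay at chr6:6863416-6864189, with folds of 7.1 and 7.28 and pileups of 21 and 17. This stretch also lies in Dlx6os1, the lncRNA known as Evf2 that is transcribed across Dlx6, and it touches Dlx6os2, so the peak cannot be given to 1 of these genes. At the outer end of Dlx5 lay chr6:6881338-6881751, with folds of 6.45 and 5.06 and a replicate 1 summit 561 bp inside the gene. Replicate 2 had a further peak at chr6:6882175-6882401, on the other side of that end, with a fold of 4.28 and no overlap in replicate 1, whose nearest peak was 423 bp away.

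Dlx6os1 itself showed no peak at either of its own promoters, which lie in the gap and to the left of Dlx6. They were picked for display because they hold the homeodomain word TAATTA, given in capitals (RefSeq, GRCm38.p6, minus strand, chr6:6869484-6869783 and chr6:6861634-6861933).
Dlx6os1, promoter in the gap: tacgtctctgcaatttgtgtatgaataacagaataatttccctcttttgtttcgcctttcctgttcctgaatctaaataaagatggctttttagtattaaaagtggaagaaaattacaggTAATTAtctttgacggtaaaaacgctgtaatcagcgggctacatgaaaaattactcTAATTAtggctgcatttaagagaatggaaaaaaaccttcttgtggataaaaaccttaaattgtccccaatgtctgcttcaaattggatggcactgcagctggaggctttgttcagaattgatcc
Dlx6os1, promoter left of Dlx6: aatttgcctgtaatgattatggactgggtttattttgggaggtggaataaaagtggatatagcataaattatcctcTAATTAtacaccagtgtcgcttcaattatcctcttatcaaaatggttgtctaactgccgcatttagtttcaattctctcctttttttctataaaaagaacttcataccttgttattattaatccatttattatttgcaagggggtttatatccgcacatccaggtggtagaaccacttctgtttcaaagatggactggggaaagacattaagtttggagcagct

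The gap promoter held TAATTA at 2 places and the other at 1, and neither held TGACAG or TGATTGACA. The promoters of Dlx6os2 and Dlx4os held none of the searched words, and no peak overlapped them either. A contrast between promoters with and without the word is thus made by the choice of what is shown. The Dlx6os1 promoters were poor in G and C, at 35.7% and 35.3%. The nearest replicate 1 summits lay 4665 and 2368 bp from their starts, and the nearest replicate 2 summits 5282 and 2058 bp. Within the body of Dlx6os1 but left of Dlx6, replicate 1 had peaks at chr6:6837247-6837498 and chr6:6856112-6856283, with folds of 4.12 and 4.69 and pileups of 6 and 7. The nearest replicate 2 peak was 25985 bp from the first and 7200 bp from the second.

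Dlx3 and Dlx4, the pair used outside the forebrain, also had reproducible peaks at their outer ends. At the outer end of Dlx3 lay chr11:95119938-95120512, with folds of 5.52 and 4.64, pileups of 20 and 11 and a replicate 1 summit 128 bp from the end. A further reproducible peak lay inside Dlx3 at chr11:95123545-95123840, with folds of 4.65 and 2.96. At the outer end of Dlx4 lay chr11:95145777-95146343, with folds of 6.59 and 5.08, pileups of 21 and 11 and a replicate 1 summit 94 bp from the end. The lncRNA Dlx4os overlaps Dlx4 there, and a replicate 1 peak without a partner, chr11:95145164-95145513 with a fold of 5.23, had its summit 260 bp from the Dlx4os start. In replicate 1 the end peaks of Dlx3 and Dlx4 (folds of 5.52 and 6.59) lay within the span of those of Dlx1, Dlx2, Dlx5 and Dlx6 (3.64 to 7.1), and in replicate 2 (4.64 and 5.08) they did too (3.16 to 7.28).

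All 3 gaps held a reproducible peak. The gap of 9.43 kb between Dlx1 and Dlx2 held 2, at chr2:71538722-71538964 (folds of 5.15 and 3.36, pileups of 20 and 9) and chr2:71541327-71541554 (folds of 4.0 and 3.33, pileups of 24 and 12). The first had its summits 974 and 990 bp beyond the edge of Dlx1as, the antisense RNA of Dlx1, that lies nearer Dlx2. Dlx1 is on the plus strand, so an RNA antisense to it starts at that edge. The gap of 9.83 kb between Dlx6 and Dlx5 held chr6:6874507-6875018 (folds of 5.21 and 7.4, pileups of 13 and 16), which was 1 of only 2 reproducible peaks in the windows with a higher pileup in replicate 2. Next to it lay a replicate 1 peak without a partner, chr6:6874105-6874276, with a fold of 5.24, 433 bp from the nearest replicate 2 peak. The gap of 15.2 kb between Dlx3 and Dlx4 held chr11:95130673-95130969, with folds of 8.75 and 5.8 and pileups of 27 and 11. That fold was the highest on any of the 3 pairs in replicate 1, and the summits lay 13 bp apart. Replicate 1 had 1 more there, chr11:95135591-95135762, with a fold of 4.36.

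For scale, 9509 neighbouring pairs of protein-coding genes had a gap over 2 kb and up to 30 kb, with a median of 10527 bp. A reproducible peak more than 1 kb from either gene lay in 13.0% of these gaps, and at least 2 lay in 2.39%. The 3 Dlx gaps are part of this count, and Dlx3/Dlx4 belongs to the 13.0% as much as the forebrain pairs do. The sources used here give no coordinates for the known enhancers in the gaps, so no peak was given an enhancer's name.

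Agreement between the gap peaks depended on how sharing was defined. With 50% reciprocal overlap, the peak at chr2:71541327-71541554 and the Dlx5/Dlx6 gap peak were no longer shared, which left 1 gap peak at Dlx1/Dlx2, 0 at Dlx5/Dlx6 and 1 at Dlx3/Dlx4. With −log10 q of at least 5 in every library, the counts were 0, 1 and 1.

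Outside the pairs, the forebrain windows held few reproducible peaks. At Dlx1/Dlx2 they were 1 at the end of Metap1d, a mitochondrial methionine aminopeptidase (chr2:71453188-71453548, folds of 9.41 and 5.1), and 2 in sequence without a gene, 17.8 and 34.5 kb from the Dlx2 end (chr2:71564427-71564622, 8.82 and 6.38; chr2:71581095-71581299, 7.06 and 6.32). At Dlx5/Dlx6 there was 1, at the end of Sdhaf3, an assembly factor of succinate dehydrogenase (chr6:6955843-6956456, 5.29 and 3.83). The 9 of Dlx3/Dlx4 comprised 2 at the ends of Pdk2, a kinase of the pyruvate dehydrogenase complex, and Itga3, an integrin subunit, 2 inside those genes, 3 inside the noncoding gene Gm11515 and 2 without a gene. Pdk2 had the highest replicate 2 fold of all 3 windows at its end (chr11:95041088-95041511, 6.34 and 8.25). Counting only sequence outside other protein-coding genes and 1 kb around them, an alternative chosen after the data were seen, left 7, 3 and 9 reproducible peaks at Dlx1/Dlx2, Dlx5/Dlx6 and Dlx3/Dlx4, and the forebrain windows then had 0.585 times the density of Dlx3/Dlx4. The 2 gene-free peaks beyond Dlx4 lay at chr11:95164318-95164563 (5.98 and 6.14) and chr11:95179357-95179767 (6.7 and 5.48).

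A peak found in a single replicate was common in all 3 windows. Replicate 1 peaks had a partner in replicate 2 in 8 of 10 cases at Dlx1/Dlx2 (80.0%, 95% Wilson interval 49.0 to 94.3), in 4 of 7 at Dlx5/Dlx6 (57.1%, 25 to 84.2) and in 13 of 26 at Dlx3/Dlx4 (50.0%, 32.1 to 67.9). The intervals cover counting error only and overlap widely, and the share over the whole replicate 1 list was 61.2%. From the replicate 2 side the order was another one: 61.5% at Dlx1/Dlx2, 57.1% at Dlx5/Dlx6 and 78.9% at Dlx3/Dlx4. The share over the whole replicate 2 list was 59.2%, close to both forebrain values. The Dlx3/Dlx4 share is 15 of 19 peaks, because 2 of them share 1 replicate 1 partner at Itga3 and the partner of another, inside Samd14, has its summit just outside the window. The forebrain windows together held 5 peaks in replicate 1 only and 8 in replicate 2 only, and the Dlx3/Dlx4 window held 13 in replicate 1 only and 4 in replicate 2 only.

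Peaks without a partner were of several kinds. At Dlx1/Dlx2 the 2 in replicate 1 only, chr2:71551853-71552330 and chr2:71629428-71629626, had folds of 7.4 and 7.06, above every peak on the pair, and the nearest replicate 2 peaks were 5009 and 9997 bp away. Of the 5 in replicate 2 only, 1 stood beside the inner end of Dlx2 (chr2:71543050-71543270, fold 4.06), with its summit 228 bp from it, and its pileup of 17 was the highest of that replicate in the window. This was the only inner end of a Dlx gene with a summit within 1 kb in either replicate. A second lay inside Dlx2 (chr2:71544531-71544692, fold 2.91). The other 3 lay beyond Dlx2 with pileups of 4 to 6. At Dlx5/Dlx6 the 2 leftmost peaks, 83.4 and 74.3 kb from Dlx6, were in replicate 2 only, with folds of 5.74 and 5.1. At Dlx3/Dlx4, 6 of the 13 replicate 1 peaks without a partner lay within 1 kb of a replicate 2 peak that they did not touch, the closest 208 bp away, so at some positions the 2 lists mark neighbouring places rather than the same one.

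Reproducible peaks of the 3 windows had a Spearman correlation of 0.65 between replicates for fold enrichment and 0.56 for pileup, over 25 peaks that share their libraries. Summits of shared peaks lay a median of 90 bp apart and at most 310 bp. Median folds were 5.24 and 4.4 at Dlx1/Dlx2, 5.87 and 6.17 at Dlx5/Dlx6, and 5.75 and 5.08 at Dlx3/Dlx4, against 7.26 and 6.38 over all 47809 reproducible peaks. Median pileups were 18.5 and 9.5, 15.5 and 14, and 17 and 11 in the same order of loci, against 17 and 12 over all reproducible peaks. By locus medians, pileups were thus near the whole list, though 9.5 against 12 at Dlx1/Dlx2 in replicate 2, and folds were lower. The Dlx5/Dlx6 median of 6.17 in replicate 2 was close to 6.38. The Dlx1/Dlx2 medians pool unlike peaks. In replicate 1 its reproducible peaks had folds of 3.64 to 5.33 on the pair and 7.06 to 9.41 in the flanks.

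**Figure D3:**
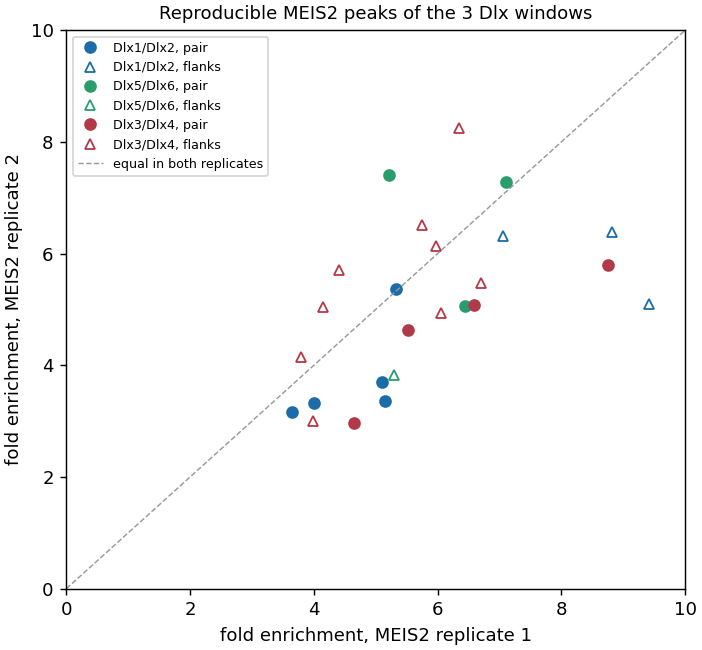
Fold enrichment of the 25 reproducible peaks of the 3 windows in MEIS2 replicate 1 (x axis) and replicate 2 (y axis), with filled circles for peaks on a pair and open triangles for those in the flanks. The Dlx1/Dlx2 pair peaks lie between 3.64 and 5.33 on the x axis and between 3.16 and 5.36 on the y axis, where the peak at Dlx1 is the highest of them, and the 3 Dlx1/Dlx2 flank peaks stand at 7.06 or more in replicate 1.

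Low fold at an ordinary pileup means a high local expectation by arithmetic, because the expectation was computed from these 2 values. The values below show only at which peaks it was high. MACS divides by the larger of the genome-wide expectation and that of the surrounding 10000 bp, and the deposited pileup and fold give that divisor back. With no control, the local expectation comes from the same library, so tags of a peak and of its neighbours count in it. The genome-wide expectation was 0.701 tags in replicate 1 and 0.568 in replicate 2. On the Dlx1/Dlx2 pair the divisor's expectation was 4.39 to 7.49 times this value in replicate 1 and 3.16 to 6.04 times in replicate 2. On Dlx5/Dlx6 it was 2.11 to 2.99 and 2.28 to 2.77 times, and on Dlx3/Dlx4 2.5 to 4.1 and 1.88 to 2.99 times. The Dlx1/Dlx2 range thus lay above the Dlx5/Dlx6 and Dlx3/Dlx4 ranges in both replicates. Over all reproducible peaks the median was 1.69 times in replicate 1 and 1.51 in replicate 2, and 23.5% and 19.9% of them reached 3 times. Around the forebrain pairs the surroundings counted for little: 4 of 5 replicate 1 and 5 of 6 replicate 2 flank peaks of Dlx1/Dlx2 were scored against the genome-wide value itself, as were 2 of 3 and 3 of 3 at Dlx5/Dlx6, but none of the 20 and 15 flank peaks of Dlx3/Dlx4. By the same arithmetic, a tag-rich surrounding lowers the fold of a peak within it. At the peak chr2:71541327-71541554 in the Dlx1/Dlx2 gap, the pileup of 24 exceeded that of 80.5% of replicate 1 peaks while its fold of 4.0 exceeded that of 7.5%. At chr2:71564427-71564622, beyond Dlx2, a pileup of 14 gave a fold of 8.82. Order by fold and order by pileup therefore put different Dlx1/Dlx2 peaks first. What raised the tag count over the pairs was not tested, and the no-antibody list gives no tag counts outside its own peaks.

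**Figure D4:**
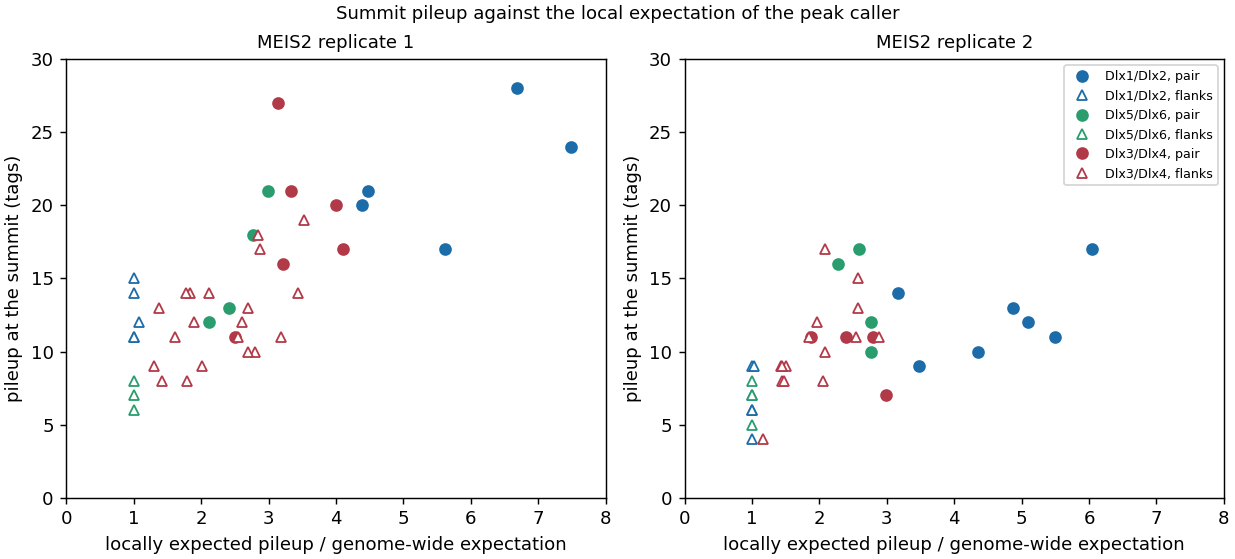
Pileup at the summit in tags (y axis) against the locally expected pileup divided by the genome-wide expectation (x axis) for every MEIS2 peak of the 3 windows, by replicate. Peaks on the Dlx1/Dlx2 pair (filled blue) lie farthest right, at 4.39 to 7.49 in replicate 1 and 3.16 to 6.04 in replicate 2, while forebrain flank peaks (open blue and green) stand at or near 1.

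Genes that work with Dlx factors were set beside them as 2 lists. Of 42 genes of the Dlx network in the ventral forebrain, 26 carried one or more reproducible summits no farther than 1 kb from an end (61.9%, Wilson interval 46.8 to 75), beside 52.4% of all protein-coding genes. The highest lower-of-replicates folds were at Nr2f2 (7.92), a nuclear receptor of caudal eminence and interneurons, Foxp2 (7.23) of striatal neurons, the LIM factor Isl1 (6.98) and the dopamine receptor Drd2 (6.95). Among those without were Cxcr4, Etv1, Gad1 and Gad2, of which Gad1 and Gad2 make GABA and are known Dlx targets. Of 28 genes that act with Dlx factors in jaw, bone, skin or placenta, 14 had such a peak (50.0%, 32.6 to 67.4), led by Psg23 (8.29), Edn1 (7.65), Bmp2 (6.43) and Alx4 (6.11), with Alx1, Amelx, Bglap and Bmp4 among those without. The lists were picked by hand with earlier results known, and the intervals are wide and cover counting error only. They therefore cannot show whether either list differs from all protein-coding genes. Neither list had a no-antibody peak at a gene end. Median densities within 100 kb were 1.98 and 2.45 reproducible peaks per 100 kb, beside 2.55 for all genes.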

How the data were processed

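CUT&Tag libraries of the E14.5 lateral ganglionic eminence of CD1 mice were grouped by the antibody label into MEIS2 (2 libraries of 150 bp paired reads) and no antibody (1 library). Per the file headers, the authors called peaks in each library alone with MACS 2.2.7.1, with no control, a q cutoff of 0.05, at most 1 tag per position and read pairs not used. Alignment to mm10 with Bowtie2 2.3.4, and use of Picard, Trimmomatic and a MACS2 2.1.4, are named without order, per the submitters' processing notes. The deposited pileup is a signal in tags that is not scaled to depth, and the deposited fold enrichment is a ratio within a library. Of the deposited −log10 values, the q-value was used in an alternative and the p-value was not used. Redundant rates in the headers were 0.90 to 0.92, so 6337375 to 7618406 tags per library were used, and weak peaks may be missed at this depth.

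Peaks on chromosomes 1 to 19, X and Y were kept. Overlap, distances and shares were computed in Python 3.11.15 with pandas 2.3.3, and the overlap step was tested on simulated data. The local expectation was recomputed as (pileup + 1)/fold − 1 and set against the tags used times the fragment length over the genome size in the header. Gene ends and names came from the RefSeq table of GRCm38.p6, which gives no strand, and promoter windows from a RefSeq table of the same build, which held Dlx1, Dlx2, Dlx6os1, Dlx6os2 and Dlx4os of the members and their noncoding partners. Sequence beyond promoter windows and Dlx proteins were not used here. Named genes were the 6 members, noncoding genes at the pairs, protein-coding genes beside described peaks, and from each of 2 gene lists the 4 strongest and the first 4 without a peak by alphabet; Trp63 stood in for the older symbol Tp63. The members and lists were chosen with earlier results of these data known. Settings also tried were reciprocal overlap of 50%, a −log10 q floor of 5, flanks of 50 kb, gene-end limits of 0.5 and 2.5 kb, no removal of peaks shared with the control, and each replicate left out, and 3 more were added after the data were seen.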

Additional observations from a re-analysis of the deposited data

How the results depend on the processing

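Of 91 recomputed values for 17 results, 66 stayed within 1.5 times the main count, within the spread between replicates or within the counting interval, and 25 moved. Of the 66, 17 could not have changed, because no window held a no-antibody peak to remove or to filter. For the density ratio, the spread was that of the values with 1 replicate left out. Those values were thus scored against a spread that they set, and their staying within it says little. The ratio of forebrain to Dlx3/Dlx4 density stayed below 1 in all 8 alternatives and ran from 0.338 to 0.544 when 1 replicate was left out, with 0.759 at flanks of 50 kb. With −log10 q of at least 5, reproducible peaks numbered 3 at Dlx1/Dlx2 and 7 at Dlx3/Dlx4 (8 and 13 in the main result), the share of Dlx1/Dlx2 replicate 1 peaks with a partner was 33.3%, the Dlx1/Dlx2 gap held 0, Dlx genes with an end peak numbered 3, and median folds, taken over the mean of both replicates (main values 4.88, 6.03 and 5.49), were 6.69, 6.31 and 6.09 at Dlx1/Dlx2, Dlx5/Dlx6 and Dlx3/Dlx4; stricter lists hold fewer peaks by construction. Flanks of 50 kb gave 7 reproducible peaks at Dlx3/Dlx4, the same number as at Dlx1/Dlx2, and a Dlx5/Dlx6 median fold of 6.31. With 50% reciprocal overlap the gap counts were 1 at Dlx1/Dlx2 and 0 at Dlx5/Dlx6, and the Dlx5/Dlx6 median fold was 5.76. A gene-end limit of 0.5 kb left 3 Dlx genes with an end peak and one of 2.5 kb gave 6, as did counting RefSeq promoter starts. Shares of all genes under these gene-end settings were not computed. With 1 replicate left out, counts ran from 10 to 13 at Dlx1/Dlx2, from 7 to 7 at Dlx5/Dlx6 and from 19 to 26 at Dlx3/Dlx4, gap counts from 2 to 3, 1 to 2 and 1 to 2, median folds from 4.06 to 6.19, 5.1 to 5.24 and 5.08 to 5.23, and Dlx genes with an end peak stayed at 5. Causes of these shifts were otherwise not tested. No paired analysis was possible because the groups share no library numbers in the labels and no test was made.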
